A study of Mus musculus with 10 samples.

Results

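RNA levels of the SCAN and BTB zinc finger families were compared in embryonic mouse cortex between RNA bound by a 4E-T antibody, RNA bound by control IgG, and total input RNA. Members were all genes whose symbol is Zkscan, Zscan or Zbtb followed by a number and at most 1 letter, taken from probe sets with a single gene symbol, with the brightest probe set kept for each gene. This gave 65 of the 22180 genes measured, 28 of the SCAN family (11 Zkscan and 17 Zscan genes) and 37 of the BTB family (Zbtb genes). The choice of members used symbols and brightness over all arrays and no difference between groups.

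SCAN and BTB genes encode C2H2 zinc finger proteins, most of which bind DNA and act in the nucleus as transcription factors. The SCAN domain is a dimerization domain of vertebrates, and the K in Zkscan stands for an added KRAB domain. In many proteins a KRAB domain binds the corepressor Trim28, and whether those of the Zkscan members do so was not examined. The BTB domain, also called POZ, dimerizes too and recruits corepressors such as Bcor, or the ubiquitin ligase scaffold Cul3. The protein 4E-T (gene Eif4enif1) is a partner of eIF4E that holds mRNAs in a repressed state and is found in P-bodies. Several Zbtb genes have known roles in the developing forebrain, among them Zbtb18 in cortical neuron differentiation and Zbtb20 in the hippocampus.

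Arrays held 3 samples of 4E-T-bound RNA (4E-T 1, 2 and 3), 3 of IgG-bound RNA (IgG 2, 3 and 4) and 4 of input RNA (inputs 1 to 4). The tissue was cortex of CD1 embryos taken at embryonic days 12 to 13, with no treatment or genetic change named, and the labels do not say how many embryos or litters a sample held. A precipitate can hold RNA from every cell type of the tissue, so the cell type in which an RNA was bound cannot be told. A difference of cell make-up between samples cannot be told apart from a difference in binding either. The design text speaks of 3 replicates of each kind, while 4 inputs are labelled, and nothing says that samples of a group came from separate litters, so p-values measure only the spread between these samples.

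Values were log2 intensities after RMA, and levels are not compared between genes because each probe set has its own brightness. Across all probe sets, 4E-T 1 and input 1 had medians of 3.52 and 3.54, against 4.33 to 4.54 on the other 8 arrays, and no IgG array was on that lower scale. The fit therefore held a term for that pair of arrays, called the set term, and each count of SCAN and BTB genes called is also given for the 8 other arrays alone. A difference from the fit is not the plain difference of group means, since the set term takes up the lower scale. With that term, 4E-T 1 enters 4E-T over IgG only by way of input 1. Of the 4E-T group, the 8 other arrays hold 4E-T 2 and 4E-T 3 alone. Taking every gene, the median fitted difference was 0.03 between 4E-T and IgG, 0.04 between 4E-T and input, and 0.03 between IgG and input. With group alone these medians were -0.19, -0.02 and 0.20. Of 11 measured marker genes of cortical precursors and neurons, 11 lay above the median of all genes in input. Of 4 ventral forebrain markers 3 did, of 5 endothelial markers 3, of 5 meningeal markers 1, and of 5 microglial markers 2. In 4E-T over IgG 6 of the cortical markers were called higher and 1 lower, and their summed linear signal was 6721 to 7764 in 4E-T, 6058 to 6268 in IgG and 4043 to 5901 in input. In the same comparison 2 of the ventral, 1 of the endothelial, 1 of the meningeal and 0 of the microglial markers were called higher and 0 of any of these lower. The summed linear signal of the ventral markers was 200 to 308 in 4E-T, 140 to 208 in IgG and 103 to 207 in input. That of the endothelial markers was 131 to 244 in 4E-T, 130 to 158 in IgG and 126 to 236 in input. That of the meningeal markers was 67.5 to 185 in 4E-T, 136 to 212 in IgG and 48.5 to 172 in input, and that of the microglial markers 113 to 279, 193 to 268 and 102 to 206. Of 5 erythroid markers 1 was measured, and it lay above the median of all genes in input. It was not called in 4E-T over IgG. Its linear signal was 124 to 269 in 4E-T, 48.9 to 453 in IgG and 74.0 to 431 in input. The ranges for 4E-T and input take in the lower-scale arrays 4E-T 1 and input 1, and those for IgG hold no such array. The ranges are therefore not set against each other between groups. A place above the median of all genes is a rough guide only, since brightness differs between probe sets. The part of these markers in the results was not tested.

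RefSeq promoter windows (build GRCm38.p6, 250 bases before to 50 after a transcript start) were found for 51 of the 65 members. The arrays measured RNA and not promoters, so the windows are shown only as a sequence feature that the choice of members did not use. Zkscan1 and Zscan21 are shown because they are direct neighbours on chromosome 5 and were both higher with 4E-T. Zkscan6 and Zbtb45 are shown as the SCAN and BTB genes with the highest difference in 4E-T over IgG among members with a window. Windows of the genes with the lowest differences are not shown. Capitals mark CCGGAAG, a sequence found in many ETS factor motifs, and GGGCGG, the GC box, on either strand, including overlapping matches.
Zkscan1 (chr5:138084834-138085133, plus strand): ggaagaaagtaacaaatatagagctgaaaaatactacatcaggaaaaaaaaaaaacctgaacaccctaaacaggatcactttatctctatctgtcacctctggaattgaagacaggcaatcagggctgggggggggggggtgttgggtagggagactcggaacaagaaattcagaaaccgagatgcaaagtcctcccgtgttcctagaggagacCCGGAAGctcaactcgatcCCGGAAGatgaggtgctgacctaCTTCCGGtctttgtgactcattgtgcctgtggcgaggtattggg
Zscan21 (chr5:138116655-138116954, plus strand): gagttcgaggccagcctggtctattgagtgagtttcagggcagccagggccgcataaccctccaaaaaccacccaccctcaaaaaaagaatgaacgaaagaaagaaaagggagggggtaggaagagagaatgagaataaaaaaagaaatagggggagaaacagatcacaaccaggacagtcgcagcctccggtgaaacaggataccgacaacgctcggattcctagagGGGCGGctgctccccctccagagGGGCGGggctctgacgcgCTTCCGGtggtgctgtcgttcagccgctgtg
Zkscan6 (chr11:65806925-65807224, plus strand): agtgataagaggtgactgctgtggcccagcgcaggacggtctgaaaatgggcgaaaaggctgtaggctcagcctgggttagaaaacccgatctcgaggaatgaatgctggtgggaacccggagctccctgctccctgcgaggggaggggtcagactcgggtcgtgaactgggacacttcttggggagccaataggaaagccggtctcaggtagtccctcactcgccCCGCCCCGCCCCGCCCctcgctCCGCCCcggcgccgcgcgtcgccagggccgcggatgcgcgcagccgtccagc
Zbtb45 (chr7:13009803-13010102, minus strand): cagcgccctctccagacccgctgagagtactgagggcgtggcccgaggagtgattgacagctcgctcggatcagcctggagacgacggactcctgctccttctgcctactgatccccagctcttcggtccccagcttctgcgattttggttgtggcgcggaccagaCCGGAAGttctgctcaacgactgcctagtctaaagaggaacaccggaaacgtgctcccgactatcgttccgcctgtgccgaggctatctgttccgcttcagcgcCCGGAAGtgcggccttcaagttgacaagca
The windows differed in composition. Zkscan1 held 3 copies of CCGGAAG and 0 of GGGCGG, Zscan21 held 1 and 2, Zkscan6 held 0 and 4, and Zbtb45 held 2 and 0. CCGGAAG was present in 8 of 24 SCAN windows (33.3%) and 9 of 45 BTB windows (20%), against 8.86% of all 32851 windows. GGGCGG was present in 29.2% of SCAN windows and 64.4% of BTB windows, against 35.7% of all. TATAAA, which was also counted, was present in 16.7% of SCAN and 11.1% of BTB windows, against 13.6% of all. The motifs were picked with their values in view. The median GC content was 52.8% for SCAN and 62.7% for BTB windows, against 52.7% for all, and the median number of CG dinucleotides was 11.5 and 25, against 7. A match is a description of these letters, windows of 1 gene can overlap, and no test was run.

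Setting 4E-T against IgG shows which members had a higher relative level with the 4E-T antibody than with a control antibody. Of the 28 SCAN genes, 10 were higher with 4E-T, 1 was lower and 17 were not called, where a call is an adjusted p under 0.05 in limma (Benjamini-Hochberg over all genes). Over all genes, 7.57% were called higher and 2.92% lower. Of the 37 BTB genes, 6 were higher, 0 lower and 31 not called in limma. An unadjusted p under 0.05 was found in 11 SCAN genes higher and 2 lower and in 10 BTB genes higher and 0 lower, against 15.7% and 8.12% of all genes. The median difference, relative to that of all genes, was 0.31 for SCAN genes and 0.15 for BTB genes. With group alone or median centring it was 0.28 for SCAN and 0.25 for BTB genes, and without dim genes 0.27 and 0.067. In the 8 arrays alone 8 SCAN and 5 BTB genes were higher and 0 lower, against 6.29% and 2.33% of all genes. With group as the only term 2 SCAN genes and 0 BTB genes were called, all higher, against 0.708% of all genes called higher and 0.64% lower. With the replicate number as a block 9 SCAN genes were higher and 1 lower and 6 BTB genes were higher, against 7.8% and 3.26% of all genes. The difference between both families was not tested.

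**Figure D1:**
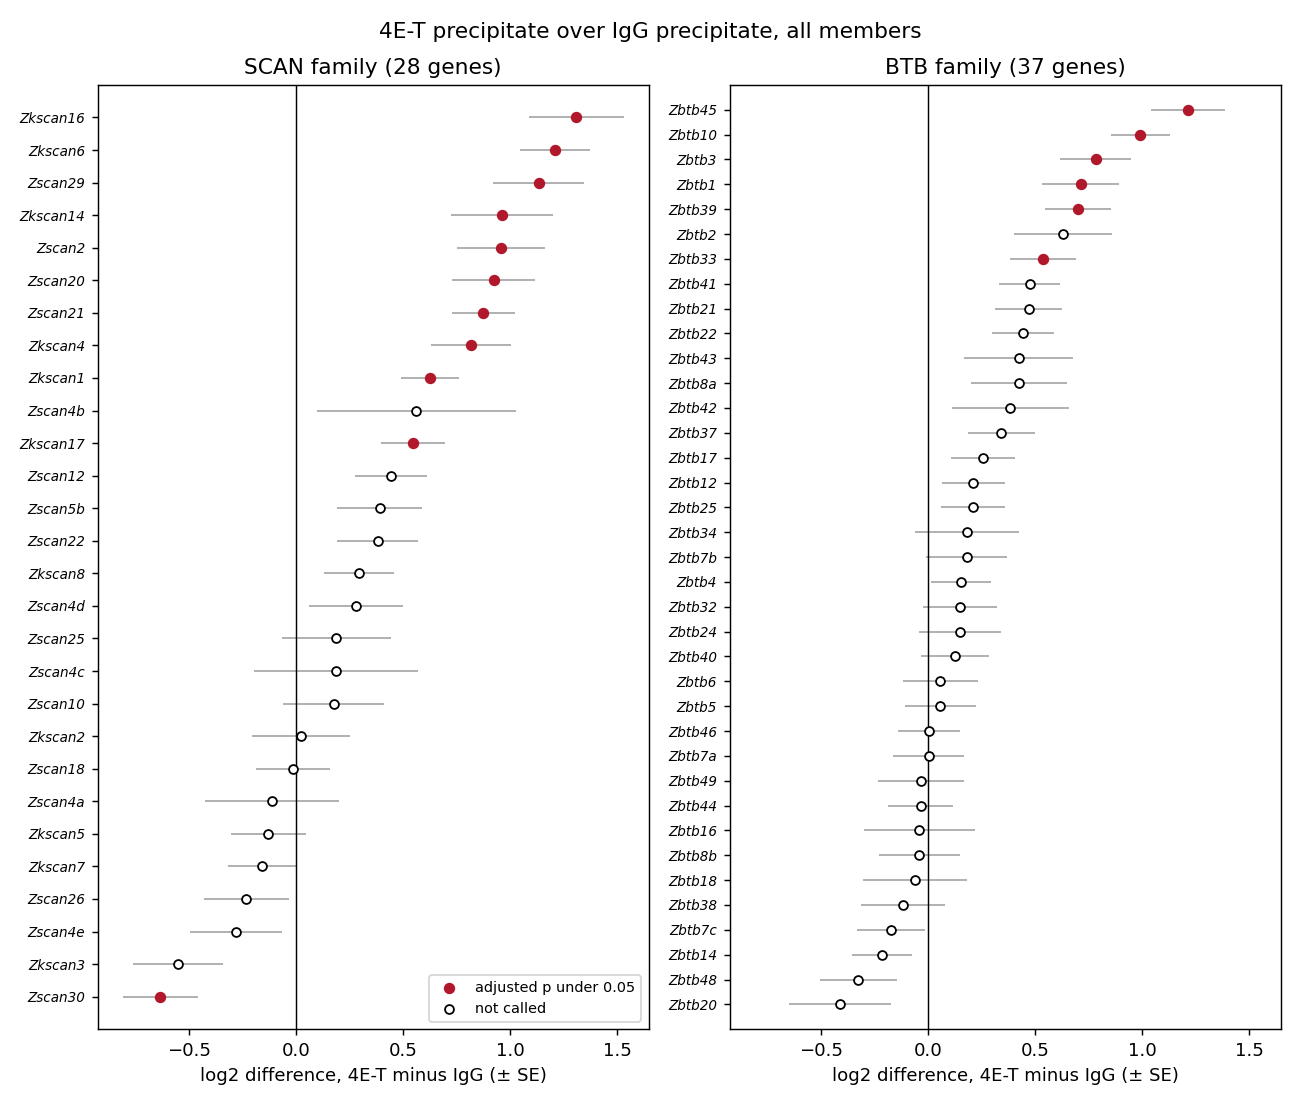
Fitted log2 difference of 4E-T minus IgG for the 28 SCAN genes (left) and the 37 BTB genes (right), ordered by size, with standard errors as bars. Filled points mark the 10 higher and 1 lower SCAN genes and the 6 higher BTB genes called at an adjusted p under 0.05.

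Zkscan16 led the SCAN genes. Its level was 5.85, 6.44 and 6.61 on 4E-T 1, 2 and 3, against 5.10, 5.50 and 4.69 on IgG 2, 3 and 4, and the inputs lay between 4.47 and 4.66. The lower-scale array 4E-T 1 was still above every IgG array, and the groups did not overlap. The fitted difference was 1.31 ± 0.22 (SE, 2.48-fold, adjusted p = 0.00365 in limma).

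Zkscan6 was at 6.35, 6.49 and 6.24 with 4E-T, against 5.45, 4.99 and 5.03 with IgG. Its inputs were 5.56, 5.55, 5.54 and 5.67, so that 4E-T lay above and IgG below all inputs. The difference of 4E-T over IgG was 1.21 ± 0.16 (2.32-fold, adjusted p = 0.00106 in limma). Zkscan16 and Zkscan6 were the 2 SCAN genes that were called under all 17 alternative settings tried, including the fit with group alone (adjusted p = 0.0475 and 0.0159).

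Zscan21, which has been studied in mouse as Zipro1 in cerebellar granule cell precursors, was at 7.42, 7.47 and 7.48 with 4E-T. It was at 6.44, 6.62 and 6.83 with IgG and at 6.39 to 6.70 in the inputs. All 3 values with 4E-T lay above the other 7 arrays, and IgG overlapped with input. The difference was 0.88 ± 0.15 (1.83-fold, adjusted p = 0.00379 in limma). Its neighbour Zkscan1, whose human counterpart is the host gene of a circular RNA, was at 8.33, 8.70 and 8.83, against 8.26, 8.08 and 8.10, a difference of 0.63 ± 0.13 (adjusted p = 0.0125 in limma).

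Zscan29 was at 7.57, 8.04 and 7.90 with 4E-T, against 7.27, 6.62 and 6.44 with IgG, a difference of 1.13 ± 0.21. Zscan2 was at 5.28, 5.97 and 5.86, against 4.97, 5.01 and 4.66, a difference of 0.96 ± 0.21. Zscan20 was at 4.11, 4.58 and 4.80, against 3.79, 3.94 and 3.34, a difference of 0.92 ± 0.19. Zscan20 was a dim gene, with a mean over all arrays under the median of all genes, and was absent from the fit without dim genes. The adjusted p was 0.00625 for Zscan29, 0.0125 for Zscan2 and 0.0113 for Zscan20 in limma. In all 3 genes the groups did not overlap, but they were named because they were called, so this adds no support. The share of all genes without overlap is not given, so for other members too a lack of overlap is description only. Zkscan14 was at 5.19, 5.48 and 5.0 with 4E-T, against 4.71, 4.16 and 4.34 with IgG. Its difference was 0.96 ± 0.24 (adjusted p = 0.0244 in limma), and its inputs, 4.41 to 5.51, spanned most of the range of both precipitates.

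The remaining SCAN genes called higher were Zkscan4 and Zkscan17, named here to complete the count. Zkscan4 was at 0.82 ± 0.19 (adjusted p = 0.0169 in limma) on its brighter probe set and at 0.01 ± 0.22 on the other, so that its probe sets disagreed, and its call was lost when they were averaged (adjusted p = 0.193). Zkscan17, which binds the histone methyltransferase Nsd1, was at 0.55 ± 0.15 (adjusted p = 0.0391 in limma). Its call held under 5 of 17 alternatives.

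Zscan30 was the SCAN gene that was lower. It was at 5.81, 5.61 and 5.92 with 4E-T, against 6.56, 6.51 and 6.26 with IgG, and the inputs lay between 5.77 and 6.23. The difference was -0.63 ± 0.17 (adjusted p = 0.0388 in limma), and the call was lost in the 8 arrays (0.0544) and under 10 of 17 alternatives in all. Zkscan3, a repressor of autophagy and lysosome genes, was at 6.37, 6.30 and 6.56 with 4E-T, against 7.37, 7.17 and 6.64 with IgG. These groups did not overlap either, but its difference of -0.55 ± 0.21 was not called (adjusted p = 0.126 in limma), and was called without IgG 4 (-0.76, adjusted p = 0.0256).

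Several calls of SCAN genes depended on single arrays. Without 4E-T 2, and likewise without 4E-T 3, 5 SCAN genes were called higher. The share of all genes called is not given for these 2 fits, so the count has no background to be set against. Zscan2 and Zscan20 lost their calls without 4E-T 2 (adjusted p = 0.0837 and 0.0540) and without 4E-T 3 (0.0687 and 0.0850), and Zkscan4 did so too (0.111 and 0.0649). Zkscan14 lost its call without 4E-T 1 or input 1 (0.0580 each), 4E-T 2 (0.126), IgG 3 (0.0742) or IgG 4 (0.0553). Zkscan4 also lost its call without IgG 3 (0.0538) and Zkscan1 without 4E-T 3 (0.0821), while Zkscan17 kept its call only without IgG 3. Zscan30 was called without input 2, input 4 or IgG 4 and lost without any 1 of the other 7 arrays.

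Zscan4 genes, which mark the activated genome of 2-cell mouse embryos and act on telomeres, were not called in any of the 3 comparisons on the 10 arrays. In the 8 arrays Zscan4d was called in 4E-T over input, at 0.82 (adjusted p = 0.00942 in limma), against 0.52 ± 0.19 on all 10 (0.0898). The 5 probe sets lie in a run of near-identical copies, of which Zscan4a and Zscan4e are annotated as pseudogenes, so their values cannot be assigned to single copies with certainty. Zscan4c was at 1.96, 2.85 and 2.23 with 4E-T, against 2.35, 2.65 and 2.19 with IgG and 1.92 to 3.80 in the inputs. The 5 differences of 4E-T over IgG lay between -0.28 for Zscan4e and 0.56 for Zscan4b. Without them 10 of 23 SCAN genes (43.5%) were higher and 1 lower in 4E-T over IgG, against 7.57% and 2.92% of all genes. Zscan10, a gene of embryonic stem cells, was at 0.18 ± 0.24 and was not called either (adjusted p = 0.734 in limma).

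Fitted differences of neighbouring SCAN genes differed in sign in places, but no neighbours were called in opposite directions. On chromosome 13, 5 members lay with at most 1 protein-coding gene between neighbours. Their differences, in this order, were 0.44 for Zscan12, -0.55 for Zkscan3, -0.23 for Zscan26, 0.82 for Zkscan4 and 0.29 for Zkscan8. Of these Zkscan4 was called, and not when its probe sets were averaged (adjusted p = 0.193 in limma). On chromosome 5, Zkscan14 was called higher at 0.96, while its direct neighbour Zkscan5 was at -0.13 ± 0.17 and was not called (adjusted p = 0.734 in limma).

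Among BTB genes, Zbtb45, which has been linked to glial differentiation of neural progenitors, had the highest difference of 4E-T over IgG. It was at 6.17, 6.77 and 6.76 with 4E-T, against 5.86, 5.36 and 5.43 with IgG, and at 5.12 to 5.87 in the inputs. The values with 4E-T lay above all other arrays, and IgG overlapped with input. The difference was 1.22 ± 0.17 (2.32-fold, adjusted p = 0.00147 in limma).

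Zbtb10, whose product represses Sp1, stood at 9.16, 9.41 and 9.33 with 4E-T, against 8.42, 8.28 and 8.46 with IgG and 7.49, 7.87, 7.65 and 7.72 in input. The 3 groups were fully separate, with IgG between 4E-T and input. 4E-T over IgG was 0.99 ± 0.14 (1.99-fold, adjusted p = 0.00125 in limma).

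Zbtb1, needed for lymphocyte development, and Zbtb39 had the same order of groups. Zbtb1 was at 7.66, 8.35 and 8.05 with 4E-T, against 7.64, 7.46 and 7.22 with IgG and 6.51 to 6.95 in input, and 4E-T over IgG was 0.71 ± 0.18 (adjusted p = 0.0277 in limma). Zbtb39 was at 8.53, 9.40 and 9.61 with 4E-T, against 8.77, 8.76 and 8.62 with IgG and 7.55 to 8.09 in input. Here the lower-scale array 4E-T 1 fell below all IgG arrays, and 4E-T 2 and 3 lay above them. The fitted difference was 0.70 ± 0.15 (adjusted p = 0.0141 in limma).

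The other BTB genes called were Zbtb3 and Zbtb33, the gene of Kaiso, which binds methylated DNA. Zbtb3 was at 5.19, 5.58 and 5.23 with 4E-T, against 4.61, 4.70 and 4.6 with IgG, a difference of 0.78 ± 0.17 (adjusted p = 0.0118 in limma). Zbtb33 was at 8.03, 8.36 and 8.29, against 7.90, 7.90 and 7.79. Both groups were narrow and did not overlap, but the difference of 0.54 ± 0.15 was called narrowly (adjusted p = 0.0450 in limma), and the call held under 4 of 17 alternatives, with 0.0514 with the replicate block.

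The same held for several BTB genes. Without 4E-T 2 there were 2 BTB genes called higher and without 4E-T 3 there were 3. These counts too have no share of all genes beside them. Zbtb1 lost its call without 4E-T 2 (adjusted p = 0.170), 4E-T 3 (0.0795), IgG 3 (0.0581) or IgG 4 (0.0735), Zbtb39 without 4E-T 2 (0.0675) or 4E-T 3 (0.108), and Zbtb3 without 4E-T 2 (0.0902). Zbtb33 kept its call among these fits only without input 4. Zbtb45 and Zbtb10 were called whichever array was left out and lost their calls with group alone (adjusted p = 0.10 and 0.0511).

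**Figure D2:**
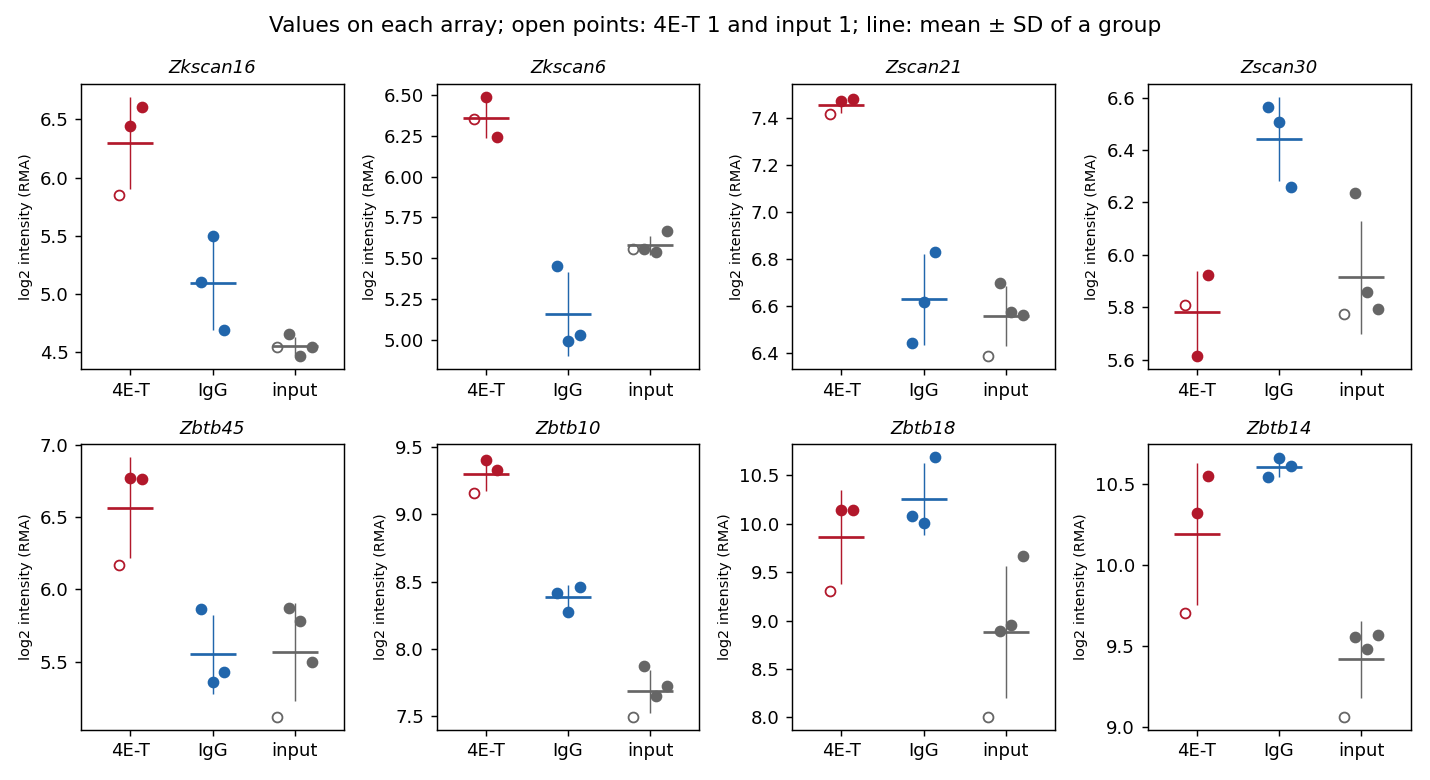
Deposited log2 intensities of 8 members on each array, in 4E-T (left), IgG (middle) and input (right), with the group mean as a line and ± SD as a bar. Open points are 4E-T 1 and input 1, the lower-scale arrays. In Zkscan16, Zkscan6, Zscan21, Zbtb45 and Zbtb10 the 3 values with 4E-T lie above all IgG values, while in Zbtb18 and Zbtb14 the groups overlap.

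The comparisons of each precipitate with input asked which members had a higher relative level after precipitation than in the tissue. They share the 4 input arrays, so each is given by its own values. In 4E-T over input, 10 SCAN genes were higher, 1 lower and 17 not called in limma, and 16 BTB genes were higher, 0 lower and 21 not called. Over all genes, 10.4% were called higher and 8.86% lower. An unadjusted p under 0.05 was found in 13 SCAN genes higher and 1 lower and in 19 BTB genes higher and 1 lower, against 16.1% and 12.9% of all genes. In the 8 arrays alone 10 SCAN genes and 13 BTB genes were higher and 0 lower, against 8.88% and 7.2% of all genes. With group alone 5 SCAN and 5 BTB genes were higher and 0 lower, against 2.56% and 3.58% of all genes. The relative median was 0.32 for SCAN and 0.28 for BTB genes, and for BTB genes 0.39 with the replicate block and 0.53 without dim genes. The block left 10 SCAN genes higher and 1 lower and 16 BTB genes higher, against 10.9% and 9.46% of all genes.

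In IgG over input, 1 SCAN gene was higher, 1 lower and 26 not called in limma, and 10 BTB genes were higher, 0 lower and 27 not called. Over all genes, 6.14% were called higher and 10.5% lower. In the 8 arrays alone 0 SCAN genes were higher and 2 lower, Zkscan14 and Zkscan17. There 9 BTB genes were higher and 0 lower. Of all genes, 5.68% were higher and 9.97% lower in these arrays. An unadjusted p under 0.05 was found in 6 SCAN genes higher and 4 lower, and in 13 BTB genes higher and 1 lower, against 12.4% and 15.7% of all genes. The relative median was 0.04 for SCAN and 0.14 for BTB genes, and 0.31 for BTB genes without dim genes. With group alone 0 SCAN genes and 3 BTB genes were called, all higher, against 1.45% of all genes higher and 3.99% lower. The replicate block gave 1 SCAN gene higher and 2 lower and 9 BTB genes higher, against 7.11% and 11.5%.

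**Figure D3:**
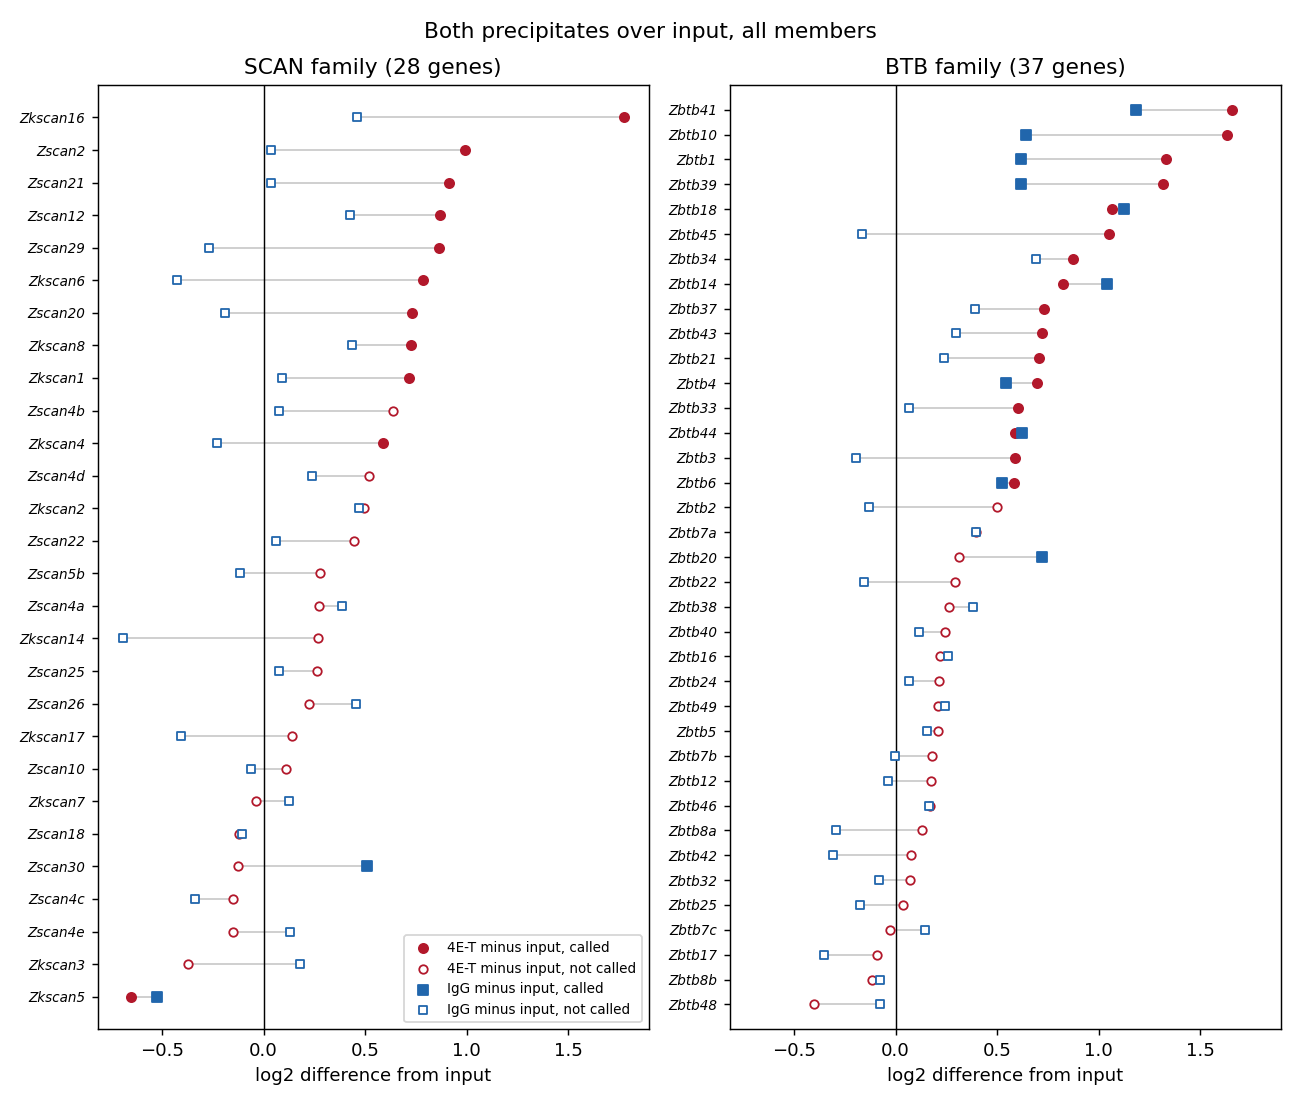
Fitted log2 differences of 4E-T minus input (red circles) and IgG minus input (blue squares) for each SCAN gene (left) and BTB gene (right), joined by a line and ordered by 4E-T minus input. Filled symbols are called at an adjusted p under 0.05, and both symbols of a gene share the input arrays. Filled blue squares appear at 2 SCAN genes, Zscan30 and Zkscan5, and at 10 BTB genes.

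Zkscan16 had the highest difference from input of the SCAN genes with 4E-T, at 1.77 ± 0.20 (3.42-fold, adjusted p = 1.37e-04 in limma), and its difference with IgG was 0.46 ± 0.20 (adjusted p = 0.157). Zscan2 was at 0.99 ± 0.18 with 4E-T and 0.03 with IgG, Zscan21 at 0.91 ± 0.13 and 0.04, and Zscan29 at 0.86 ± 0.19 and -0.27. Zkscan6 was at 0.78 ± 0.15 with 4E-T and -0.43 with IgG. In each of these 4 genes the call was made with 4E-T (adjusted p from 5.51e-04 for Zscan21 to 0.00653 for Zscan29) and not with IgG.

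Zscan12 was at 6.87, 7.22 and 7.36 with 4E-T, 6.90, 6.74 and 6.72 with IgG and 6.26, 6.59, 6.17 and 6.18 in input. Over input it was called with 4E-T at 0.87 ± 0.15 (adjusted p = 0.00163 in limma) and not with IgG at 0.43 ± 0.15 (0.0847), and 4E-T over IgG was not called either (0.44 ± 0.17, 0.126). Every precipitate lay above every input, and 4E-T 1 lay inside the IgG range.

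The other SCAN genes called higher than input with 4E-T were Zkscan8 (0.73 ± 0.15), Zscan20 (0.73 ± 0.17), Zkscan1 (0.72 ± 0.12) and Zkscan4 (0.59 ± 0.17). Zscan20 lost this call without 4E-T 3 (adjusted p = 0.0756 in limma), and Zkscan4 without 4E-T 1 or input 1 (0.0555 each), 4E-T 2 (0.149), 4E-T 3 (0.0720) or input 3 (0.0736). The other probe set of Zkscan4 was at -0.15 over input with 4E-T, and the call was lost when both were averaged (0.22, 0.448). Zscan30 was the SCAN gene called higher in IgG than in input (0.51 ± 0.16, 0.0497), and the call held without input 2 or IgG 4 and was lost without any 1 of the other 8 arrays. Zkscan14 was at -0.69 ± 0.22 in IgG over input, just outside the threshold (0.0501). It was called under 10 of 17 alternatives, among them the 8 arrays (-0.78, 0.0330), quantile normalization (-0.81, 0.0245) and the replicate block (-0.70, 0.0409).

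Zkscan5 was the SCAN gene that was lower than input in both precipitates. It was at 5.20, 5.32 and 4.85 with 4E-T, 5.41, 5.15 and 4.96 with IgG, and 6.0, 5.68, 5.67 and 5.67 in input. No precipitate reached the lowest input. The difference was -0.65 ± 0.16 with 4E-T (adjusted p = 0.0106 in limma) and -0.52 ± 0.16 with IgG (0.0432), and neither call held in the 8 arrays (0.0597 and 0.0754). The call with 4E-T was also lost without 4E-T 1 or input 1 (0.0597 each) or 4E-T 3 (0.0816), and the call with IgG held without any 1 of 4E-T 2, 4E-T 3 or IgG 2 and was lost without any 1 of the other arrays.

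Among BTB genes, Zbtb41 had the highest difference from input with either antibody. It was at 9.21, 9.79 and 9.96 with 4E-T, 9.33, 9.33 and 9.45 with IgG and 7.68, 8.05, 8.14 and 8.32 in input. Every precipitate lay above every input. Over input it was at 1.66 ± 0.13 with 4E-T (3.15-fold, adjusted p = 3.28e-05 in limma) and at 1.18 ± 0.13 with IgG (2.27-fold, 1.53e-04), and 4E-T over IgG, 0.48 ± 0.14, missed the threshold (0.0557). That difference was called with the replicate block (0.0469).

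Zbtb10 was at 1.63 ± 0.12 over input with 4E-T (adjusted p = 2.97e-05 in limma) and at 0.64 ± 0.13 with IgG (0.00448). Zbtb1 was at 1.33 ± 0.16 with 4E-T (2.26e-04) and 0.62 ± 0.17 with IgG (0.0245), and Zbtb39 at 1.32 ± 0.14 (1.08e-04) and 0.62 ± 0.14 (0.0106). The call of Zbtb1 with IgG was lost without IgG 2 (0.0791), IgG 3 (0.0628), input 3 (0.0511) or input 4 (0.0778). Zbtb45 was at 1.05 ± 0.15 over input with 4E-T (6.12e-04) and at -0.17 ± 0.16 with IgG, which was not called.

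Zbtb18, also called RP58, a repressor needed for cortical neuron differentiation, was called higher than input with either antibody. It was at 9.30, 10.14 and 10.14 with 4E-T, 10.08, 10.01 and 10.68 with IgG, and 8.01, 8.90, 8.95 and 9.67 in input. Both arrays numbered 4, IgG 4 and input 4, were the highest of their groups. Within equal numbers, 4E-T minus input was 1.30, 1.24 and 1.19, and IgG minus input 1.19, 1.06 and 1.02, so the spread between numbers exceeded the spread of the steps. The fitted differences were 1.06 ± 0.22 with 4E-T (adjusted p = 0.00449 in limma) and 1.12 ± 0.22 with IgG (0.00470), and 4E-T over IgG was -0.06 ± 0.24 (0.923).

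Zbtb14, whose product was first described as a repressor of Myc, was called higher in 4E-T than in input on all 3 of its probe sets. On the brightest it was at 9.70, 10.32 and 10.55 with 4E-T, 10.54, 10.66 and 10.61 with IgG and 9.06, 9.56, 9.48 and 9.56 in input. Over input it was at 0.82 ± 0.13 with 4E-T (adjusted p = 7.37e-04 in limma) and at 1.04 ± 0.13 with IgG (2.96e-04). The other probe sets gave 0.98 and 0.78 with 4E-T and 0.89 and 0.45 with IgG, and the last of these was not called when all probe sets were tested (adjusted p = 0.134). 4E-T over IgG was -0.22, 0.09 and 0.33 on the 3 probe sets, called on none and of differing sign.

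Zbtb20, a regulator of hippocampal development, was at 6.44, 6.88 and 6.99 with 4E-T, 7.01, 7.27 and 7.77 with IgG and 6.11, 6.41, 6.36 and 7.11 in input. It was called over input with IgG (0.72 ± 0.22, adjusted p = 0.0419 in limma) and not with 4E-T (0.31 ± 0.21, 0.400), and 4E-T over IgG was -0.41 ± 0.24 (0.345). Here too IgG 4 and input 4 were the highest of their groups, and with the replicate block 4E-T over input was called (0.47, 0.0301). The call with IgG was lost in the 8 arrays (0.0723) and without any 1 array other than IgG 2 and input 4, with adjusted p of up to 0.138.

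Zbtb44 was at 0.59 ± 0.13 over input with 4E-T and 0.62 ± 0.14 with IgG (adjusted p = 0.00846 and 0.00894 in limma). Zbtb4, which like Kaiso binds methylated DNA, was at 0.70 ± 0.13 and 0.54 ± 0.13 (0.00214 and 0.0131), and Zbtb6 at 0.58 ± 0.16 and 0.53 ± 0.16 (0.0198 and 0.0432). The call of Zbtb44 with 4E-T was lost without 4E-T 2 (0.0659). That of Zbtb6 with IgG held without input 3 and was lost without any 1 of the other 9 arrays, and its call with 4E-T was lost without 4E-T 1 or input 1 (0.131 each) or 4E-T 2 (0.0732). In 4E-T over IgG, Zbtb44 was at -0.03, Zbtb4 at 0.16 and Zbtb6 at 0.06, and none was called. With 4E-T, Zbtb34, Zbtb37, Zbtb43, Zbtb21, Zbtb33 and Zbtb3 were also called higher than input, at 0.59 to 0.88, and none of them with IgG, although Zbtb34 was called with IgG in the 8 arrays (adjusted p = 0.0261). Without 4E-T 2 the calls of Zbtb34 (0.0652), Zbtb43 (0.126) and Zbtb3 (0.102) were lost, and without 4E-T 3 those of Zbtb34 (0.0931) and Zbtb43 (0.231). Zbtb43 was also lost without input 2 (0.0690), input 3 (0.115), input 4 (0.0857) or IgG 3 (0.0537) and with the replicate block (0.0654). Zbtb3 and Zbtb33 were lost without 4E-T 1 or input 1 (0.0635 and 0.0540).

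Among BTB genes with known roles, Zbtb16, Zbtb7a and Zbtb17 were not called in any comparison. Zbtb16, the gene of PLZF, was at 4.66, 5.33 and 4.95 with 4E-T, 4.98, 5.01 and 5.89 with IgG and 3.99, 4.91, 5.15 and 5.29 in input, with all groups overlapping. Zbtb7a was at 4.98, 4.82 and 4.94 with 4E-T, 4.89, 5.02 and 4.76 with IgG and 4.55, 4.31, 4.37 and 4.81 in input. It was at 0.40 ± 0.15 over input with either antibody (adjusted p = 0.0872 with 4E-T and 0.107 with IgG in limma), and was called with both without input 4, the highest input (0.0261 and 0.0342). Zbtb17, the gene of the Myc partner Miz-1, was at 5.32, 5.90 and 6.03 with 4E-T, 5.46, 5.76 and 5.85 with IgG and 5.47 to 6.04 in input. Its difference of 4E-T over IgG was 0.26 ± 0.15 (0.339). Zbtb48, the gene of a telomere-binding protein, had the lowest difference from input of the BTB genes with 4E-T, -0.40 ± 0.16 (0.114).

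Taking each family as a whole on each array, the median of the SCAN genes lay 1.03, 0.69 and 0.90 above the median of all genes on 4E-T 1, 2 and 3. It lay 0.33, 0.42 and 0.15 above on IgG 2, 3 and 4, and 0.32 to 0.55 above on the inputs. The 4E-T arrays were above the other 7, and IgG overlapped with input. For BTB genes the same measure was 1.13, 1.17 and 1.25 with 4E-T, 1.05, 1.11 and 0.97 with IgG and 0.85 to 0.99 in input, so that IgG overlapped with input and both lay below 4E-T. These medians are descriptions of the chosen members and carry no test.

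Related gene lists were set beside both families. Of 365 Zfp genes, which hold most other C2H2 zinc finger genes of the mouse, 115 (31.5%) were higher and 8 (2.19%) lower in 4E-T over IgG, against 35.7% and 3.57% of SCAN genes 16.2% and 0% of BTB genes, and 7.57% and 2.92% of all genes. The 8 arrays gave 97 Zfp genes higher and 6 lower. Of 59 Klhl, Kbtbd and Btbd genes, which encode a BTB domain without zinc fingers, 4 (6.78%) were higher and 1 (1.69%) lower, both near the shares of all genes. The counts were 4 and 1 in the 8 arrays and 2 and 2 with the replicate block. Kbtbd6 was higher at 1.14 ± 0.18 (adjusted p = 0.00244 in limma) and Kbtbd8 at 0.75 ± 0.13 (0.00460), both Cul3 adaptors, and Btbd7 was lower at -0.78 ± 0.13 (0.00351). Of 8 BTB zinc finger genes with other names, 2 were higher, Bcl6b at 0.85 ± 0.18 (0.0112) and Patz1 at 0.75 ± 0.15 (0.0101), and 0 lower. Of 6 measured SCAN genes with other names, limma called 0, with an unadjusted p under 0.05 in 2 higher and 1 lower (Zfp202 came closest at 0.56 ± 0.17, adjusted p = 0.0543).

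**Figure D4:**
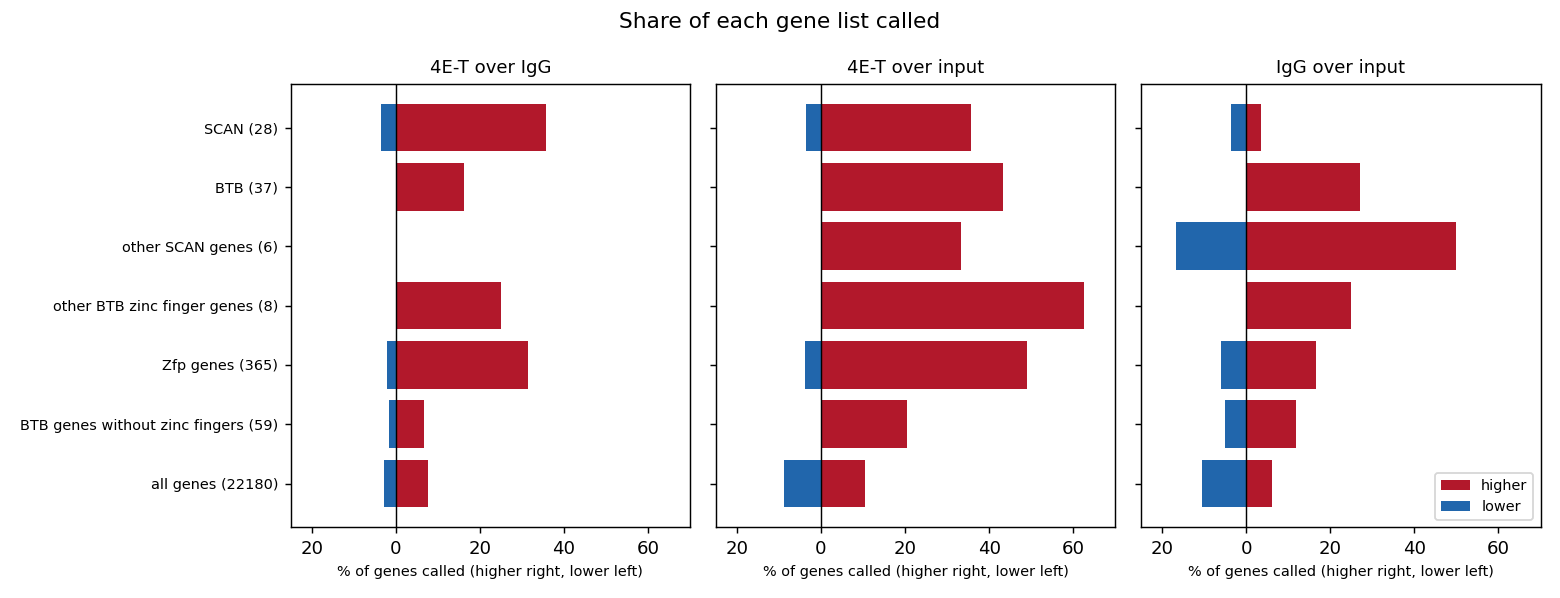
Percentage of each gene list called higher (red, to the right) and lower (blue, to the left) in 4E-T over IgG (left), 4E-T over input (middle) and IgG over input (right), with the number of genes in brackets and all 22180 genes at the bottom. SCAN genes reach 35.7% higher in 4E-T over IgG and 3.57% in IgG over input, and BTB genes 16.2% and 27.0%.

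Against input, 179 Zfp genes (49.0%) were higher with 4E-T and 61 (16.7%) with IgG, with 14 and 22 lower. Of all genes 10.4% were higher with 4E-T and 6.14% with IgG, with 8.86% and 10.5% lower. The 8 arrays gave 150 Zfp genes higher with 4E-T and 50 with IgG, with 8 and 21 lower. The other BTB zinc finger genes had 5 of 8 higher with 4E-T and 2 with IgG, and 5 and 1 in the 8 arrays. With the replicate block 6 were higher with 4E-T, with Bcl6 added (0.71, adjusted p = 0.0352 in limma), and 1 with IgG. Of the BTB genes without zinc fingers, 12 of 59 (20.3%) were higher with 4E-T and 7 (11.9%) with IgG, and in the 8 arrays 13 and 6. Of the SCAN genes with other names, 2 of 6 were higher with 4E-T, and 3 were higher and 1 lower with IgG, among them Peg3, an imprinted gene with a SCAN domain, at 0.90 with IgG (adjusted p = 0.00286 in limma) and 0.46 with 4E-T (0.0649). In the 8 arrays Peg3 was also called with 4E-T (0.63, 0.0329), and these counts were 3 higher with 4E-T and 2 higher and 1 lower with IgG. Of the cofactor genes, 4 were analysed here. Trim28, the KRAB corepressor, was lower in 4E-T than in IgG (-0.57 ± 0.14, adjusted p = 0.0275), a call that was lost in the 8 arrays (0.0567) and with group alone (0.202). Sin3a, Hdac3 and Cul3 were not called there. In 4E-T over input 1 of these 4 cofactor genes was called higher and 2 lower in limma, and in IgG over input 1 higher and 1 lower. In the 8 arrays 1 was higher and 1 lower in either comparison. The shares of all genes on the 10 arrays are those given above. All of these lists were chosen with earlier results known, and the counts carry no test of a list.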

How the data were processed

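Whole-transcript arrays (Affymetrix Mouse Gene ST) were hybridised with amplified RNA of 4E-T precipitates, IgG precipitates and input. The authors deposited log2 intensities, and the submitters' processing notes name RMA and Affymetrix Expression Console. The values are relative levels, not recovered amounts. Versions of these, the build of the probe sets and whether all arrays were normalized together are not given in the sources used here. Of 41345 probe sets, 23521 had 1 gene symbol in the platform annotation, 1814 had several and 16010 were unlisted. Members found only on probe sets with several symbols (3 symbols) were not used here. All 65 members matched the RefSeq gene table.

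Genes were fitted with limma 3.58.1 in R 4.3.3 (lmFit, eBayes) on all 10 arrays, with terms for group and for the lower-scale set, without a replicate block. That set is the arrays whose median lay over 0.5 below the median of array medians. Benjamini-Hochberg adjustment ran over all 22180 genes. The alternatives were group alone, the 8 other arrays, quantile normalization, median centring, a replicate block, averaged probe sets, no dim genes, and each array left out in turn. Each ± beside a difference is its standard error in this fit (n = 3 for 4E-T, 3 for IgG, 4 for input). These numbers count the lower-scale arrays, which with the set term bear directly only on 4E-T over input. The table has no detection calls, and precision is limited by how many arrays there are. Figures used matplotlib 3.10.9 in Python 3.11.15. No protein sequences were used here, and promoter windows were shown in their place. The rule planned for proteins, the highest and the lowest member of each family in 4E-T over IgG, was not kept. All windows shown are of genes called higher there.

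Equal replicate numbers in the labels were checked for pairing. Across genes, deviations of 4E-T and input from their group means correlated at 0.62, 0.24 and 0.28 for numbers 1 to 3, which meets the criterion of over 0.1 in each pair. Without the lower-scale arrays they were 0.04 and 0.01. For IgG and input they were -0.02, 0.08 and 0.32, which does not meet it, and 4E-T and IgG share only 2 numbers.

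Named members were the 6 highest and 6 lowest called differences per family and comparison, and Zbtb18, Zbtb20, Zbtb16, Zbtb7a, Zbtb17, Zbtb33, Zbtb14, Zkscan3, Zscan21 and Zscan4c whatever their test. Called genes of the lists were named by size, at most 4 a list. Further genes named to complete a count or beside a list, and the promoter motifs, were picked with their values in view. The members, lists and model terms were chosen with earlier results of these data known.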

Additional observations from a re-analysis of the deposited data

Results flagged for a closer look

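On the 4 input arrays, 5 of the 26 members named by rule had 1 value apart from the other 3 by Dixon's criterion, which chance meets in about 1 in 20 groups. The lower-scale array input 1 was the one apart in 4 of them. Zbtb14 was at 9.06 on input 1, against 9.48 to 9.56 on the others, Zbtb17 at 5.47, against 6.02 to 6.04, and Zbtb44 at 8.28, against 8.90 to 9.0. Zkscan5 went the other way, at 6.0 on input 1, against 5.67 to 5.68. Zkscan6 was at 5.67 on input 4, against 5.54 to 5.56 on the others.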

How the results depend on the processing

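All 17 alternatives were run. Of 979 values of named members, 851 kept direction and side of the threshold, 99 lost a call, 4 gained one and 25 changed sign without being called, and 0 called differences changed sign. The counts of calls were less steady. In 4E-T over IgG, group alone left 2 SCAN genes higher and 0 lower and 0 BTB genes higher, with a relative BTB median of 0.25. The 8 arrays left 0 SCAN genes lower there and 0 lower in 4E-T over input, as did median centring, which called 10 BTB genes higher in 4E-T over IgG (relative median 0.25), where 12.8% of all genes were higher, against 7.57% in the fit with the set term. In 4E-T over input, group alone left 5 SCAN genes higher, 0 lower and 5 BTB genes higher, and the replicate block gave a relative BTB median of 0.39. In IgG over input, SCAN genes higher and lower numbered 0 and 0 with group alone, 0 and 2 in the 8 arrays, 2 and 3 with quantile normalization, 0 and 2 with median centring and 3 and 4 without dim genes. Of all genes in that comparison, 6.57% were higher and 10.7% lower with quantile normalization, 1.52% and 11.1% with median centring, and 13.5% and 23.9% without dim genes. The block and the average of probe sets each gave 2 lower. BTB genes higher numbered 3 with group alone and 3 with median centring. Without dim genes, which leaves 20 SCAN and 29 BTB genes tested, the relative BTB medians were 0.067 for 4E-T against IgG, 0.53 for 4E-T against input and 0.31 for IgG against input. Apart from that, the cause was not tested. Leaving out 1 array gave 5 to 9 SCAN genes higher and 0 to 2 lower and 2 to 6 BTB genes higher in 4E-T over IgG. In 4E-T over input it gave 0 to 1 SCAN genes lower and a relative BTB median of 0.24 to 0.44, and in IgG over input 0 to 3 SCAN genes higher and 0 to 4 lower. Apart from the fits without 4E-T 1 or input 1, no share of all genes is given beside these counts. Leaving out 4E-T 1 or input 1 equals the fit on 8 arrays, since the set term takes up the other. These alternatives are therefore 1 fit, counted more than once in each number out of 17 and in the 979 values. With the replicate block, calls changed in 4E-T over IgG for Zkscan17 (adjusted p = 0.0541), Zbtb33 (0.0514) and Zbtb41 (0.0469), in 4E-T over input for Zbtb43 (0.0654) and Zbtb20 (0.0301), and in IgG over input for Zbtb6 (0.0564) and Zkscan14 (0.0409).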
